A study of Homo sapiens with 6 samples.

Results

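The neuronal cytoskeleton and synaptic vesicle genes described here were 38 genes named by symbol, and all 38 were present among the 25370 rows of the deposited count table. They encode neuronal intermediate filaments, GAP43 and the stathmins, microtubule-associated proteins, collapsin response mediators, beta-tubulins, kinesins, neuronal RNA-binding proteins, vesicle and SNARE proteins, and the neuronal proteins UCHL1 and RTN1. The libraries came from human neuroblastoma lines, tumour cells of the sympathetic lineage. BE2C cells with forced expression of LMO1, a LIM-only transcriptional co-regulator, gave 2 libraries, Kelly cells 1, unmodified (parental) BE2C cells 1, and BE2C cells with a vector control 2. Whether the modified cells were clones or pools, and which promoter drove LMO1, was not given in the sources used here. Both lines carry an amplified MYCN gene, so every group shares it, and the study asked how LMO1 acts together with MYCN.

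Sympathetic neuroblasts differentiate by growing neurites. Neurofilaments and microtubules then fill the axon, kinesins carry vesicles along it, and SNARE proteins with synaptotagmin release their content. ELAVL and RBFOX proteins bind RNA and set neuronal splicing and transcript stability. In neuroblastoma these genes are read as signs of how neuronal the tumour cells are, and several of them are used as immunostaining markers.

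Library totals ran from 18737591 to 59512958 counts. LMO1 itself was at 6.59 and 5.89 CPM (a count divided by its TMM-normalised library size and given per 1e6 counts) in the LMO1 libraries, against 1.06 and 0.928 CPM in the vector libraries, and at 92.7 CPM in Kelly, against 1.91 CPM in parental BE2C. The labelled cell type was checked with 13 markers of adrenergic neuroblastoma, which summed to 7553 and 7344 CPM with LMO1, 5671 CPM in Kelly, 6804 CPM in parental BE2C, and 6890 and 6840 CPM with vector. Of these 13, 6 rose and 5 fell with LMO1, where 15.9% of all genes tested rose and 15.1% fell. The haematopoietic and Schwann lists each summed to at most 20.5 CPM in any library. Markers of fibroblasts and endothelium summed to 281 and 288 CPM with LMO1, 189 CPM in Kelly, 347 CPM in parental BE2C, and 238 and 245 CPM with vector, and 4 of 7 tested rose and 1 fell with LMO1. THY1, which neurons also express, made up most of the sum in the modified libraries. The matrix genes DCN and LUM were among those that rose, by 0.84 and 1.06 on the log2 scale (edgeR adjusted p = 1.24e-10 and 2.14e-09). DCN reached 101 CPM in parental BE2C, and the collagen gene COL1A1 reached 57.1 CPM in Kelly. COL1A2, its partner chain, and PECAM1, an endothelial marker, had at most 2 counts in any library. The part of these genes in the results was not tested. The parental and Kelly libraries stood apart from the modified libraries in content. Replication-dependent histone genes, whose messages lack a poly(A) tail, summed to 12147 and 12204 CPM with LMO1, 135 CPM in Kelly, 427 CPM in parental BE2C, and 10214 and 10314 CPM with vector. With LMO1, 44 of 56 histone genes tested were called higher and 1 lower, with a median log2 fold change of 0.26, close to the 0.27 of the 38 genes given below. The part of this library content in any of the comparisons was not tested.

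Forced LMO1 went with a modest rise of most of these genes. Of the 38, 21 rose (55.3%), 5 fell (13.2%) and 12 were not called, at an adjusted p below 0.05 in edgeR's quasi-likelihood test of 2 LMO1 against 2 vector libraries. Over all 15480 genes tested, 15.9% were higher and 15.1% lower. All 38 passed the low-count filter. Their median log2 fold change was 0.27, against 0.00083 over all genes tested. Of the 38, 5 (13.2%) were called and rose at least 2-fold (KIF5C, ELAVL2, STMN4, TUBB4A and RTN1), against 4.21% of all genes tested. Together the 38 genes made up 7772 and 7686 CPM with LMO1, against 6892 and 6925 CPM with vector. In bulk RNA, a change in the number of cells expressing a gene and a change in RNA per cell cannot be told apart. Separate cultures are not stated for the 2 libraries of a group, so the p-values measure only the spread between libraries, which may be technical. Where groups are said below not to overlap, this is read from the same libraries and is no further support for a call.

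**Figure D1:**
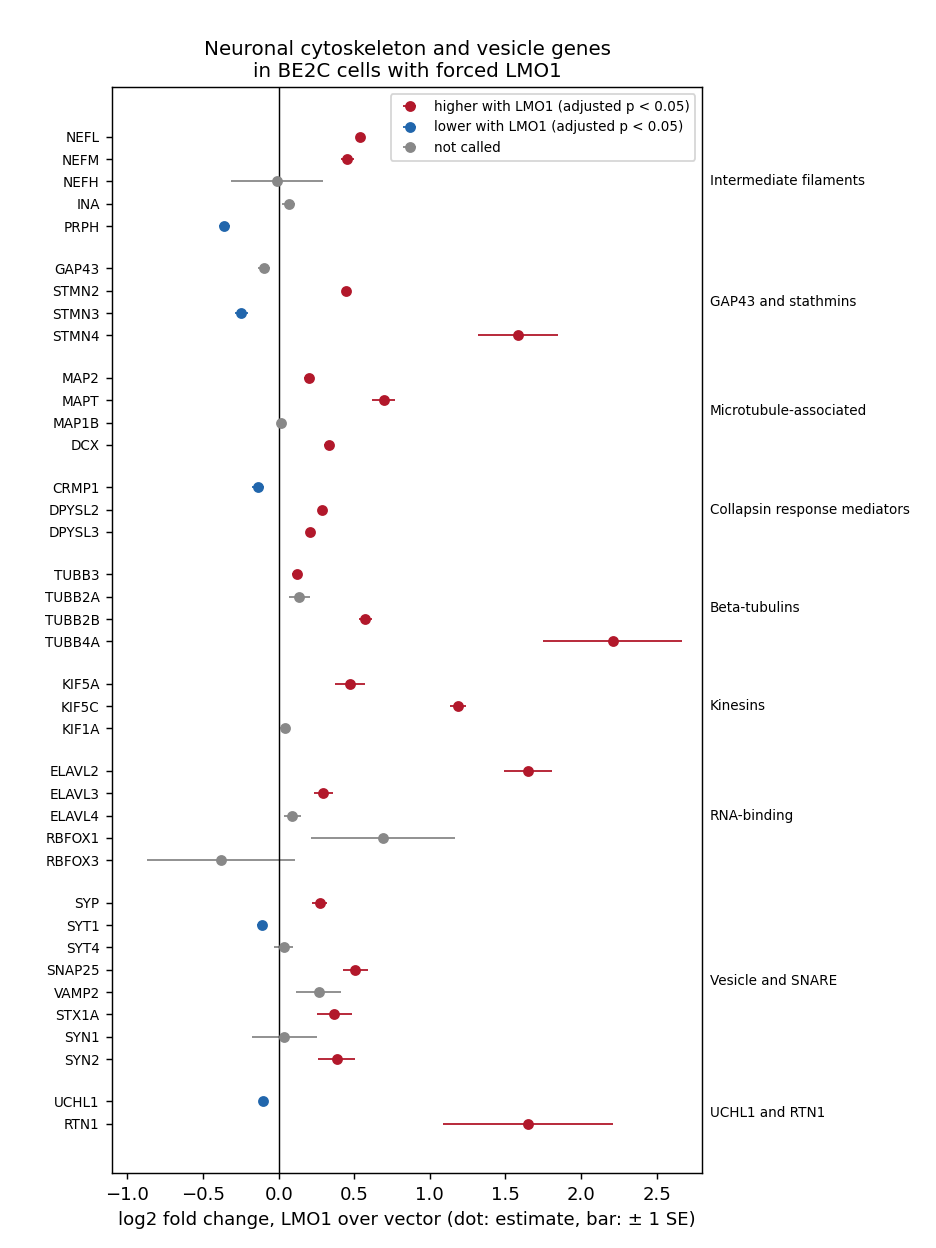
Log2 fold change of each of the 38 genes in LMO1 over vector libraries (n = 2 each), grouped by role, with bars of ± 1 SE from edgeR. Of the 38, 21 lie right of 0 as called higher, and PRPH, STMN3, CRMP1, SYT1 and UCHL1 lie left of 0 as called lower.

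Among the intermediate filament genes, the light and medium neurofilament chains rose and peripherin fell. NEFL, the light chain on which neurofilaments assemble, was at 730.8 and 730.0 CPM with LMO1, against 499 and 508 CPM with vector. The groups did not overlap, and NEFL rose by 0.54 on the log2 scale (SE 0.0271, edgeR adjusted p = 1.05e-21). NEFM, the medium chain, was at 181 CPM in both LMO1 libraries, against 125 and 140.4 CPM with vector, a log2 fold change of 0.45 (SE 0.0435, edgeR adjusted p = 6.19e-12). PRPH, the peripheral-neuron filament peripherin, was at 207 and 205 CPM with LMO1, against 265 and 266 CPM with vector, and fell by 0.36 on the log2 scale (SE 0.0346, edgeR adjusted p = 6.82e-12). INA, alpha-internexin, was at 137 and 140.1 CPM with LMO1 against 133 CPM in both vector libraries and was not called (edgeR adjusted p = 0.25). NEFH, the heavy chain of mature axons, stayed near 2 CPM in all 4 modified libraries, from 1.90 to 2.63 CPM. Scaled by transcript length, NEFL made up 54.0% ± 0.0834 of the 5 filament transcripts with LMO1 and 44.1% ± 0.184 with vector (SD, n = 2 each), and PRPH 19.2% ± 0.139 with LMO1 and 29.2% ± 0.350 with vector. For such shares, 2 against 2 libraries cannot give an exact permutation p below 0.333, so no test was made.

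The stathmins, which bind tubulin dimers, and the growth cone protein GAP43 moved apart from each other. STMN2, a neuronal stathmin of growing axons, was at 497 and 489.5 CPM with LMO1, against 369 and 357 CPM with vector, a log2 fold change of 0.45 (SE 0.0296, edgeR adjusted p = 4.01e-17). STMN4 was far less abundant, with 114 and 95 counts (6.01 and 4.21 CPM) with LMO1, against 32 and 47 counts (1.48 and 1.90 CPM) with vector. Its 4 libraries did not overlap by group, and STMN4 rose by 1.58 on the log2 scale (SE 0.264, edgeR adjusted p = 4.4e-06). STMN3 went the other way, at 163 and 167 CPM with LMO1 against 207 and 187 CPM with vector, and fell by 0.25 (SE 0.0405, edgeR adjusted p = 3.56e-06). GAP43 was at 159.9 and 151 CPM against 168 and 166 CPM with vector (log2 -0.10, edgeR adjusted p = 0.0588), and it was called lower when LMO1 replicate 1 was left out (edgeR adjusted p = 0.0361) and when all 6 libraries were in the fit (edgeR adjusted p = 0.0478). Per kilobase, STMN2 held 48.3% ± 0.0776 of the 4 stathmin transcripts with LMO1 and 37.3% ± 0.457 with vector, while STMN1, the stathmin of dividing cells, held 35.9% ± 0.174 with LMO1 and 43.5% ± 1.53 with vector.

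Of the microtubule-associated genes, 3 rose and MAP1B did not. MAPT, which encodes tau, the axonal microtubule-associated protein, was at 51.1 and 49.4 CPM with LMO1, against 32.1 and 30.3 CPM with vector. Both LMO1 libraries lay above both vector libraries, with a log2 fold change of 0.69 (SE 0.0744, edgeR adjusted p = 1.43e-10). An antisense gene, MAPT-AS1, overlaps its exons, and the strand setting of the counting was not given in the sources used here. The same limit holds for NEFL, NEFM, NEFH, PRPH, CRMP1, DPYSL2, STX1A, SYN1, SYN2, SYP, SYT1, TUBB2B, TUBB4A and UCHL1, whose exons overlap an annotated gene on the opposite strand. DCX, doublecortin of migrating neuroblasts, rose by 0.33 (SE 0.0331), and MAP2, the dendritic microtubule-associated protein, by 0.20 (SE 0.0335). MAP1B, the most abundant of the 4 both in CPM and per kilobase, was at 812 and 802 CPM with LMO1 against 806 and 796 CPM with vector. Its levels overlapped between groups, with a log2 fold change of 0.015 (SE 0.0255, edgeR adjusted p = 0.704). Among the collapsin response mediators, which link semaphorin signals to microtubules, DPYSL2 rose by 0.29 (SE 0.0282) and DPYSL3 by 0.20 (SE 0.0258). CRMP1 was at 157 and 161 CPM with LMO1 against 178 and 174 CPM with vector and fell by 0.14 (SE 0.0388, edgeR adjusted p = 0.00508), a call lost without LMO1 replicate 1 (edgeR adjusted p = 0.0585) and without vector replicate 1 (edgeR adjusted p = 0.0691).

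Kinesin-1 and beta-tubulin genes each had a paralogue that rose clearly. KIF5C, a neuron-enriched kinesin-1 heavy chain, was at 149.8 and 134 CPM with LMO1, against 63.1 and 61.8 CPM with vector. It showed no overlap between groups, and it rose by 1.19 on the log2 scale (SE 0.0519, edgeR adjusted p = 7.66e-24). KIF5A, the neuron-specific paralogue, was at 29.2 and 24.5 CPM with LMO1 against 18.2 and 20.3 CPM with vector, a log2 fold change of 0.47 (SE 0.1, edgeR adjusted p = 0.000201). Per kilobase, KIF5C thereby held 18.8% ± 1.22 of kinesin-1 heavy chain transcripts with LMO1 and 9.07% ± 0.176 with vector, and the ubiquitous KIF5B 77.0% ± 1.68 with LMO1 and 87.6% ± 0.0675 with vector. KIF1A, the kinesin-3 motor of synaptic vesicle precursors, was at 480.2 and 444 CPM against 448 and 453 CPM with vector and was not called (edgeR adjusted p = 0.335). Without LMO1 replicate 2 it was called higher (log2 0.10, edgeR adjusted p = 0.00761).

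TUBB2B, a beta-tubulin of developing neurons, was at 172 and 169.7 CPM with LMO1, against 114 and 116 CPM with vector, with a log2 fold change of 0.57 (SE 0.0414, edgeR adjusted p = 7.16e-16). Its close paralogue TUBB2A was at 53.1 and 51.8 CPM with LMO1 against 51.1 and 44.9 CPM with vector (log2 0.13, SE 0.0692, edgeR adjusted p = 0.14), and was called higher without vector replicate 1 (log2 0.22, edgeR adjusted p = 0.0467). The difference between the paralogues was not tested. In the GENCODE 29 transcripts, 47.3% of the 50-base windows of TUBB2B also occurred in TUBB2A, so how reads were split between them is uncertain. TUBB3 shared 79.6% of its windows with a read-through gene, and VAMP2 18.1% with another annotated gene, and their levels carry the same uncertainty. TUBB3, the neuronal class III tubulin stained as TuJ1, rose by only 0.12 (SE 0.0325, edgeR adjusted p = 0.00277), with levels of 295 and 296 CPM with LMO1 against 271 and 274 CPM with vector, and without vector replicate 1 it was not called (edgeR adjusted p = 0.0707). TUBB4A, a brain beta-tubulin, had 39 and 40 counts with LMO1 (2.06 and 1.77 CPM), against 10 and 9 counts with vector (0.462 and 0.363 CPM). Its log2 fold change of 2.21 (SE 0.458, edgeR adjusted p = 0.000153) was the highest of the 38 genes and rests on these few counts.

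Promoter windows of 250 bases before and 50 after the most upstream annotated start were taken from RefSeq (GRCh38.p14) for the kinesin that rose most, for the tubulin pair, and for peripherin, which fell most. Windows were matched for 28 of the 38 genes. None was matched for NEFL, NEFM, STMN2, STMN4, MAPT, DPYSL2, KIF5A, ELAVL3 and SNAP25, all called higher, nor for NEFH. The shares of windows given below leave these genes out. Searched on both strands were CAGCTG (the letters of an E-box, bound by basic helix-loop-helix proteins) and the related E-box CAGATG (also of that protein family). Searched in the same way were AGATAA (bound by factors of the GATA family), GGACAG (part of the element that REST binds) and TGACGT (part of the cyclic AMP response element). Capitals mark these letters or their reverse complement. The windows lie at chr2:148874977-148875276 (plus strand) for KIF5C, chr6:3227604-3227903 (minus strand) for TUBB2B, chr6:3157495-3157794 (minus strand) for TUBB2A, and chr12:49294897-49295196 (plus strand) for PRPH, each written 5′ to 3′ along its gene.
KIF5C: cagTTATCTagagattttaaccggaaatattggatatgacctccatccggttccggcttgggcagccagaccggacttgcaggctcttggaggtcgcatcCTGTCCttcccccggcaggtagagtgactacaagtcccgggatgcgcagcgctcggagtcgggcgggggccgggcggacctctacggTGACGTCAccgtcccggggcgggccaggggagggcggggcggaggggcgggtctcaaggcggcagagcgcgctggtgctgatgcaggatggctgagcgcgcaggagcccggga
TUBB2B: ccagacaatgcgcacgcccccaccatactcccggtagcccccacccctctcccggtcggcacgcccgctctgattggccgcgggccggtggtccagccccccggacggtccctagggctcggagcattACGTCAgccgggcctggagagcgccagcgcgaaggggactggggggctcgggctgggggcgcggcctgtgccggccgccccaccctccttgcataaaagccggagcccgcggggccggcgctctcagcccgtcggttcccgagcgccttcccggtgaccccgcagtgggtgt
TUBB2A: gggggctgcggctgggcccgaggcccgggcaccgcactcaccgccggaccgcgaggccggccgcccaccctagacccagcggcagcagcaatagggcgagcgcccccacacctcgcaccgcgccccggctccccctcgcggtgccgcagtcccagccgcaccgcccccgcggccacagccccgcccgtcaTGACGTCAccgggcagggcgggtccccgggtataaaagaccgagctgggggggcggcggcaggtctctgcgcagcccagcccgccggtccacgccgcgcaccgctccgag
PRPH: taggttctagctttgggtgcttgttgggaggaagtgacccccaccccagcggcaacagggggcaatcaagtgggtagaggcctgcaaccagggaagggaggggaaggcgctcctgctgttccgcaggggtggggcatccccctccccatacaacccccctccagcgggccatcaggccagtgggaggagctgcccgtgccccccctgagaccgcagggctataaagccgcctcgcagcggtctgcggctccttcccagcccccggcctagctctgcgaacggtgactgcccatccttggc
KIF5C held AGATAA 247 bases and GGACAG 150 bases before the start site, and TGACGT on both strands at overlapping positions from 63 bases before it. TUBB2B held TGACGT once, from 122 bases before the start, TUBB2A held it on both strands at overlapping positions from 60 bases before, and PRPH held none of the 5 motifs. Of the 28 windows, 6 held TGACGT (21.4%), against 8.32% of 27305 genes with a window. These were KIF5C, RTN1 and TUBB2B, which were called higher, and RBFOX3, SYN1 and TUBB2A, which were not called. The shares for the other motifs were 14.3% against 17.7% for CAGCTG, 25% against 14.8% for CAGATG, 21.4% against 10.5% for AGATAA and 28.6% against 20.6% for GGACAG. These are matches of letters, with no test, in a build later than that of the counts.

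Among the RNA-binding genes, ELAVL2 rose most. ELAVL2, which stabilises neuronal messages and is also known as HuB, was at 13.0 and 13.9 CPM with LMO1, against 4.71 and 3.96 CPM with vector. The groups were well apart, and ELAVL2 rose by 1.65 on the log2 scale (SE 0.16, edgeR adjusted p = 7.82e-12). ELAVL3 rose by 0.30 (SE 0.061, edgeR adjusted p = 0.000144), although without LMO1 replicate 1 it was not called (log2 0.20, edgeR adjusted p = 0.0552). ELAVL4, or HuD, was at 73.7 and 73.6 CPM with LMO1 against 69.0 and 69.8 CPM with vector and was not called (edgeR adjusted p = 0.235). The share of ELAVL2 among the 4 ELAVL transcripts, per kilobase, was 7.52% ± 0.567 with LMO1 and 2.72% ± 0.276 with vector. RBFOX1 and RBFOX3, splicing factors of mature neurons, reached no more than 23 counts in any LMO1 or vector library, and neither was called. RBFOX3 encodes NeuN, the usual nuclear marker of mature neurons, and stayed at or below 1.20 CPM in all 6 libraries.

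Of the 8 vesicle and SNARE genes, 4 rose and 1 fell, and their median log2 fold change was 0.27. SNAP25, the plasma membrane SNARE of exocytosis, was at 36.6 and 36.1 CPM with LMO1, against 24.7 and 26.6 CPM with vector, a log2 fold change of 0.51 (SE 0.0832, edgeR adjusted p = 3.35e-06). Its partner STX1A, syntaxin 1A, rose by 0.37 (SE 0.115, edgeR adjusted p = 0.0109), and the vesicle phosphoprotein SYN2 by 0.38 (SE 0.123, edgeR adjusted p = 0.0137). Both of these calls were lost with DESeq2 (adjusted p = 0.0898 and 0.0848) and in 3 of the 4 fits without 1 library, and STX1A was at 20.9 and 20.8 CPM with LMO1 against 13.7 and 18.5 CPM with vector. Without vector replicate 1 the STX1A log2 fold change was 0.17 (edgeR adjusted p = 0.374). SYP, synaptophysin of the vesicle membrane, was at 104 and 106 CPM with LMO1 against 88.3 and 86.2 CPM with vector and rose by 0.27 (SE 0.0489, edgeR adjusted p = 1.64e-05). SYT1, the calcium sensor of fast release, was at 281 and 293 CPM with LMO1 against 307 and 314 CPM with vector and fell by 0.11 (SE 0.0327, edgeR adjusted p = 0.00904). That call was lost without LMO1 replicate 1 (edgeR adjusted p = 0.0687), without vector replicate 2 (edgeR adjusted p = 0.143) and with total-count scaling (edgeR adjusted p = 0.0534). SYT4, VAMP2 and SYN1 were not called, with log2 fold changes of 0.033, 0.27 and 0.037.

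UCHL1, a ubiquitin hydrolase also known as PGP9.5 and the most abundant of the 38 genes per kilobase with vector, was at 669 and 698 CPM with LMO1 against 729.5 and 742 CPM with vector. It fell by 0.10 (SE 0.027, edgeR adjusted p = 0.00314), a call lost without vector replicate 2 (edgeR adjusted p = 0.0953). RTN1, a reticulon of the neuronal endoplasmic reticulum, had 11 and 32 counts with LMO1 against 6 and 9 counts with vector. RTN1 rose by 1.65 on the log2 scale (SE 0.561, edgeR adjusted p = 0.0208), which became 0.84 without LMO1 replicate 2 (edgeR adjusted p = 0.498). The RTN1 call was also lost with DESeq2 (adjusted p = 0.148) and without vector replicate 1 or 2 (edgeR adjusted p = 0.15 and 0.082).

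**Figure D2:**
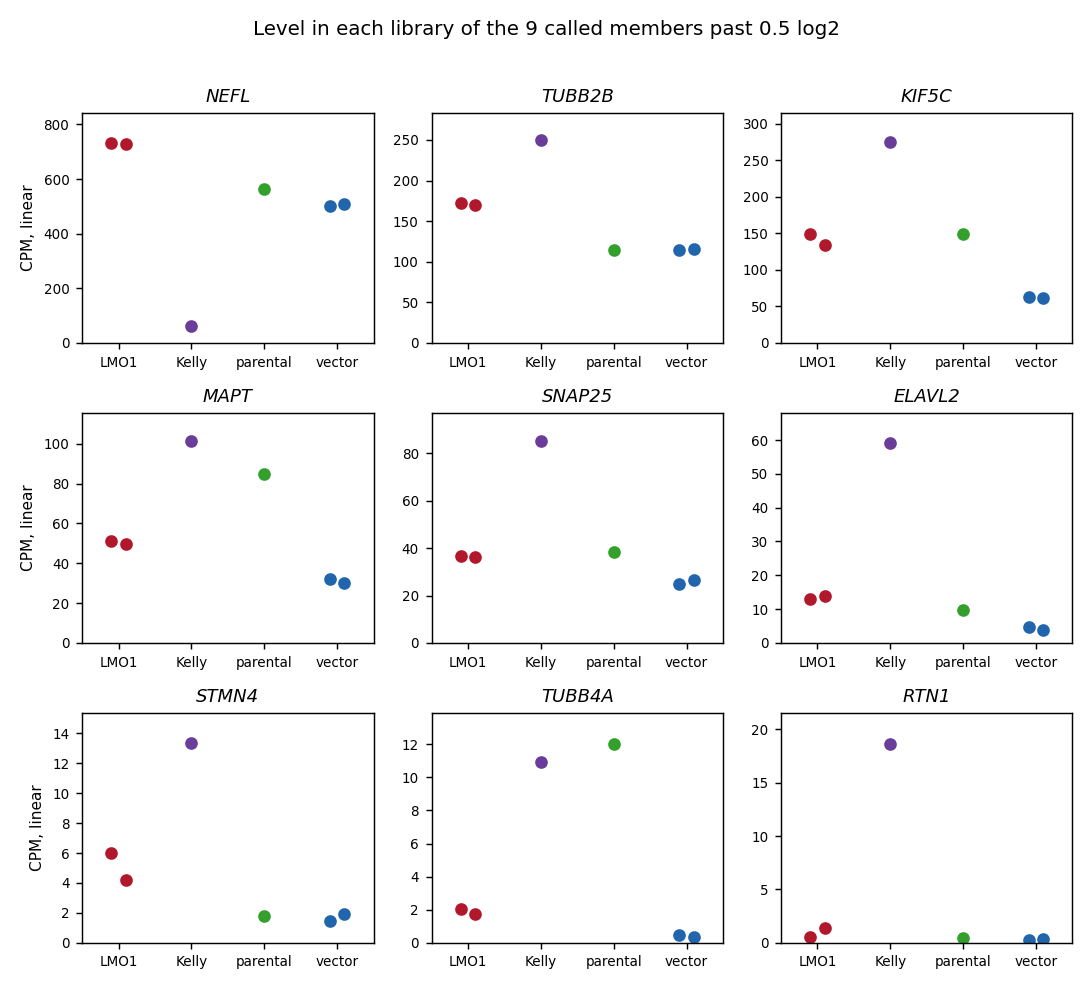
Level in CPM (linear axis from 0) in each library of the 9 genes called with an absolute log2 fold change of at least 0.5, with 1 dot per library in the order LMO1, Kelly, parental BE2C, vector. Both LMO1 dots lie above both vector dots in every panel, but the genes were chosen from this same comparison, so this is no further support. The parental dot of KIF5C, at 149.7 CPM, lies with the LMO1 dots.

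Other genes of the same machinery were read from lists of related genes, beside 15.9% higher and 15.1% lower over all genes tested. Of 57 other synaptic vesicle and active zone genes tested, 21 rose and 6 fell, with a median log2 fold change of 0.16. SV2C, a vesicle transporter-like protein, averaged 13.6 ± 2.08 CPM with LMO1, against 2.30 ± 0.451 CPM with vector (SD, n = 2 each; log2 2.54, edgeR adjusted p = 1.13e-15). DOC2B, a calcium sensor of vesicle fusion, averaged 25.6 ± 2.10 CPM with LMO1, against 7.89 ± 2.14 CPM with vector (log2 1.69, edgeR adjusted p = 4.67e-15), and CPLX2, a complexin that clamps SNARE complexes, rose by 0.33. NSF, the ATPase that takes SNARE complexes apart, fell by 0.28, and the priming factors UNC13A and UNC13B fell by 0.21 and 0.23. Without LMO1 replicate 2 the UNC13A call was lost (log2 -0.11, edgeR adjusted p = 0.202). Of 39 other cytoskeletal genes tested, 9 rose and 8 fell, with a median of -0.017. DCLK1, a doublecortin-like kinase, rose by 0.89, MAP6 by 0.58 and DPYSL5 by 0.55, while MAP1A fell by 0.66, TUBB4B by 0.28 and STMN1 by 0.20. Among 31 other transport genes, 6 rose and 3 fell, with KIF21A up by 0.51, KIF13B by 0.49 and TRAK2 by 0.24. The dynactin genes DCTN1 and DCTN2 fell by 0.25 and 0.15, and the dynein heavy chain gene DYNC1H1 by 0.079. The DCTN2 call was lost without LMO1 replicate 1 and without vector replicate 2 (edgeR adjusted p = 0.162 and 0.0791), and that of DYNC1H1 without vector replicate 2 and with total-count scaling (edgeR adjusted p = 0.336 and 0.101). The other dynein genes of the list are named after their values were seen. DYNC1I1 rose by 0.36, and DYNLL2 by 0.20 with a call lost in 4 of 12 alternatives (log2 0.17 without vector replicate 1). DYNC1I2, DYNC1LI1, DYNC1LI2, DYNLL1 and DYNLRB1 were not called.

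Kelly and parental BE2C differed far more than LMO1 and vector cells did, and in both directions. Each side is a single library, so these differences have no replicate check and carry no p-value, and the ratios below are of CPM with 1 added. Of the 37 members with at least 5 CPM on either side, 10 passed 2-fold upwards and 6 passed it downwards in Kelly, against 15.1% and 13.7% of the 12361 genes compared. NEFH, RTN1, RBFOX1 and STMN4 passed this filter only through Kelly, so they could count as higher but not as lower. The same filter was used for all genes compared. Their median log2 ratio was -0.059, against -0.040 over all genes compared, and single ratios ran from -3.14 to 6.25. Against the mean of all 5 BE2C libraries, which include the modified ones, the members' median was 0.43. No median over all genes was taken for that comparison.

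The neurofilament chains showed the widest contrast. NEFH was at 170.4 CPM in Kelly (95% Poisson interval 167 to 174), against 1.25 CPM in parental BE2C (0.951 to 1.60), and no BE2C library exceeded 2.63 CPM. NEFL was at 62.8 CPM in Kelly (60.8 to 64.8), against 562 CPM in parental BE2C (555 to 569). NEFM was at 63.6 CPM in Kelly against 430.3 CPM in parental BE2C, and PRPH at 57.6 CPM in Kelly against 169.8 CPM. These intervals cover counting error only. INA had 173 CPM in Kelly against 207 CPM in the parental library. Per kilobase, NEFH made up 30.5% of the filament transcripts in Kelly and 0.0912% in parental BE2C, while NEFL made up 10.4% in Kelly and 38.1% in parental BE2C. Kelly was the only library in which the 3 neurofilament chains had heavy above light chain.

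**Figure D3:**
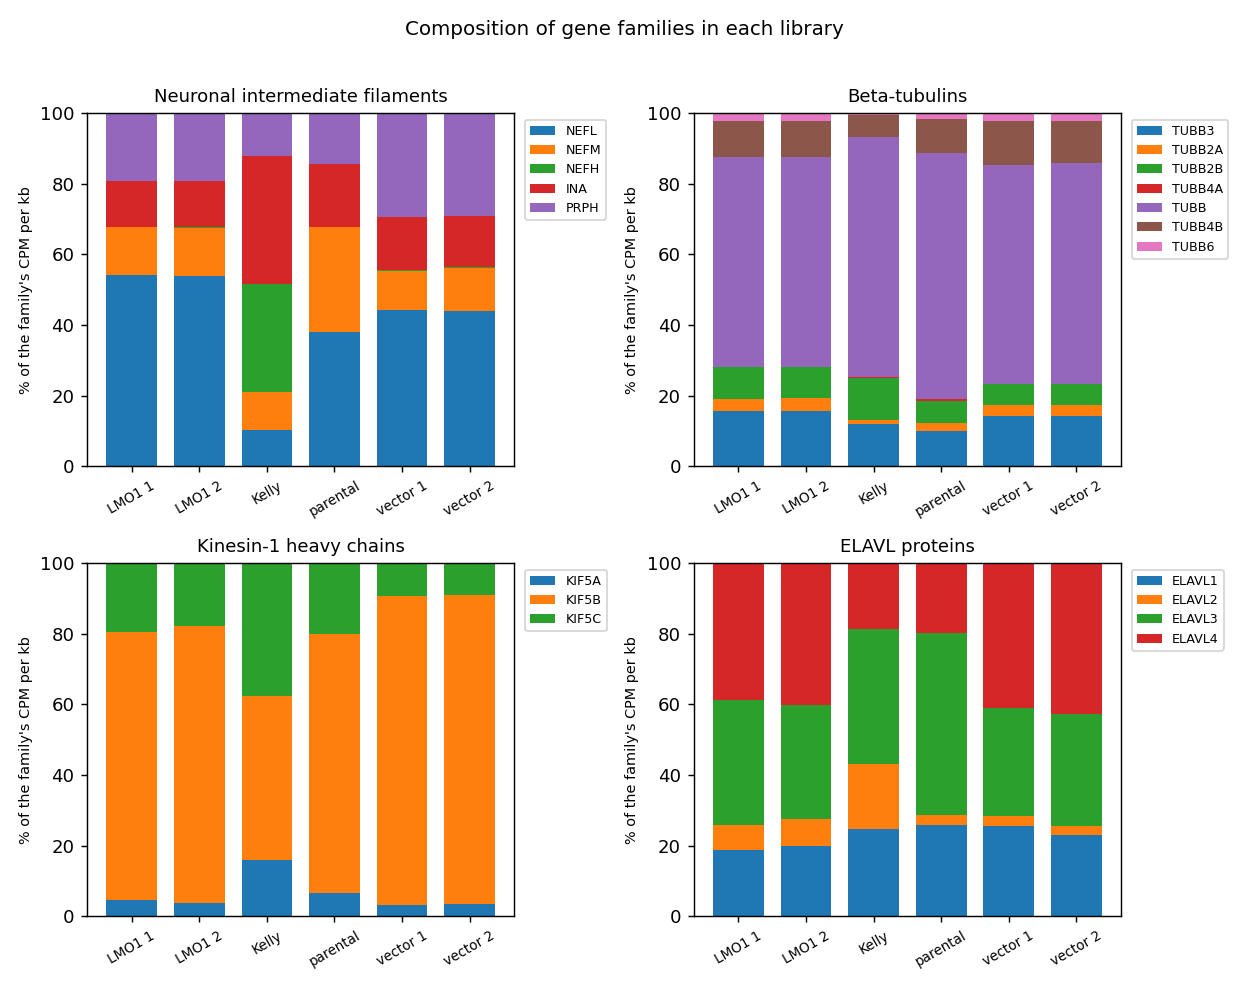
Share of each paralogue in its family's transcripts per kilobase (vertical axis, percent) in each of the 6 libraries, for intermediate filaments, beta-tubulins, kinesin-1 heavy chains and ELAVL genes. NEFH fills 30.5% of the filament bar in Kelly and under 1% in each BE2C library, and the KIF5C part is larger in Kelly (37.6%), parental BE2C (20.1%) and both LMO1 libraries than in the vector libraries.

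Several transcripts scarce in BE2C were higher in Kelly, where RTN1, RBFOX1 and STMN4 still ranked among the lowest of the 38 genes per kilobase. RTN1 was at 18.6 CPM in Kelly (17.6 to 19.8), against 0.478 CPM in parental BE2C (0.303 to 0.717). RBFOX1 was at 17.6 CPM in Kelly against 1.14 CPM in parental BE2C, ELAVL2 at 59.0 against 9.597 CPM, and STMN4 at 13.4 against 1.79 CPM. The abundant MAP2 was at 692 CPM in Kelly against 289 CPM in parental BE2C. STMN2, TUBB2B, SNAP25 and KIF5A were also past 2-fold higher in Kelly, with log2 ratios of 1.14, 1.12, 1.13 and 1.24. On the lower side DPYSL3 was at 156 CPM in Kelly against 691 CPM in parental BE2C, DPYSL2 at 148 against 393 CPM, and SYT1 at 85.2 against 257 CPM. Among the ELAVL transcripts, per kilobase, ELAVL2 held 18.5% in Kelly and 2.86% in parental BE2C.

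The comparison of LMO1 with vector and that of Kelly with parental BE2C share no library, so calls can be set side by side. Of the 21 members that rose with LMO1, 8 (38.1%) were at least 2-fold higher in Kelly than in parental BE2C and 4 (19%) at least 2-fold lower. Over all genes called higher with LMO1 and compared in Kelly, 23.1% of 2007 were at least 2-fold higher in Kelly and 20.5% lower. The 8 were STMN2, STMN4, MAP2, TUBB2B, KIF5A, ELAVL2, SNAP25 and RTN1, which were 80% of the 10 members past 2-fold higher in Kelly, and the other two were NEFH and RBFOX1. Of 1647 genes past 2-fold higher in Kelly and tested with LMO1, 28.1% were called higher with LMO1. Of all 38 members, whatever their level in Kelly, 55.3% were called higher with LMO1. RTN1 and STMN4 passed the 5 CPM filter only through Kelly, and the RTN1 call was lost in several alternatives. The 4 that went opposite ways were NEFL, NEFM, DPYSL2 and DPYSL3. Of the 5 members that fell with LMO1, PRPH and SYT1 (40%) were also at least 2-fold lower in Kelly, against 18.5% of the 2186 genes called lower with LMO1. No test was made of this overlap.

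The parental library was then compared with the mean of the vector libraries, again without a test. Of 33 members with at least 5 CPM on either side, 8 passed 2-fold upwards and 0 passed it downwards in parental cells, against 8.55% and 2.67% of the 11720 genes compared. TUBB4A, SYN1 and ELAVL2 passed this filter only through the parental library, so they could not count as lower. The vesicle SNARE gene VAMP2, synaptobrevin, was at 59.4 CPM in the parental library, against 9.51 and 7.71 CPM with vector. SYN1, which tethers vesicles to the cytoskeleton, was at 20.2 CPM in the parental library against 5.36 and 4.08 CPM with vector, and TUBB4A at 12.03 CPM against 0.462 and 0.363 CPM. VAMP2 and SYN1 were not called between LMO1 and vector, with VAMP2 at 10.02 and 10.5 CPM and SYN1 at 3.95 and 5.58 CPM in the LMO1 libraries. Kelly was close to the parental library for both, with VAMP2 at 56.5 CPM and SYN1 at 19.9 CPM. ELAVL3 was at 215 CPM in the parental library against 61.5 and 61.8 CPM with vector, NEFM at 430.3 against 125 and 140.4 CPM, and MAPT at 84.7 against 32.1 and 30.3 CPM. KIF5C and KIF5A completed the 8, with log2 ratios of 1.25 and 1.05. The lowest ratios were those of PRPH (-0.64), UCHL1 (-0.61), TUBB3 (-0.61), TUBB2A (-0.58), DPYSL2 (-0.43) and CRMP1 (-0.38).

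Levels in the parental library often lay outside those of the modified libraries, over all genes as over these. Of the 21 members that rose with LMO1, the parental level lay above all 4 modified libraries in 9 (42.9%), below them all in 5 (23.8%) and within their range in 7. Of the 2463 genes called higher over the table, it lay above in 32.8% and below in 22.6%, and of all genes tested above in 37.1% and below in 34.8%. KIF5C, at 149.7 CPM, was in the range of the LMO1 libraries, while NEFL, at 562 CPM, lay between the groups and TUBB2B, at 114 CPM, was close to the vector libraries. The GC content of the longest transcript, which ran from 36.2% to 63.5% over the 38 genes, had a Spearman rho of -0.0343 with the parental to vector ratio across 11063 genes, and centring by GC content, an alternative chosen after seeing the data, took the members' median log2 ratio to 0.15, against 0.24 without it. Genes are not independent replicates, and this is a description. The histone content given above differed between the same libraries, and its part in these ratios was not tested.

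**Figure D4:**
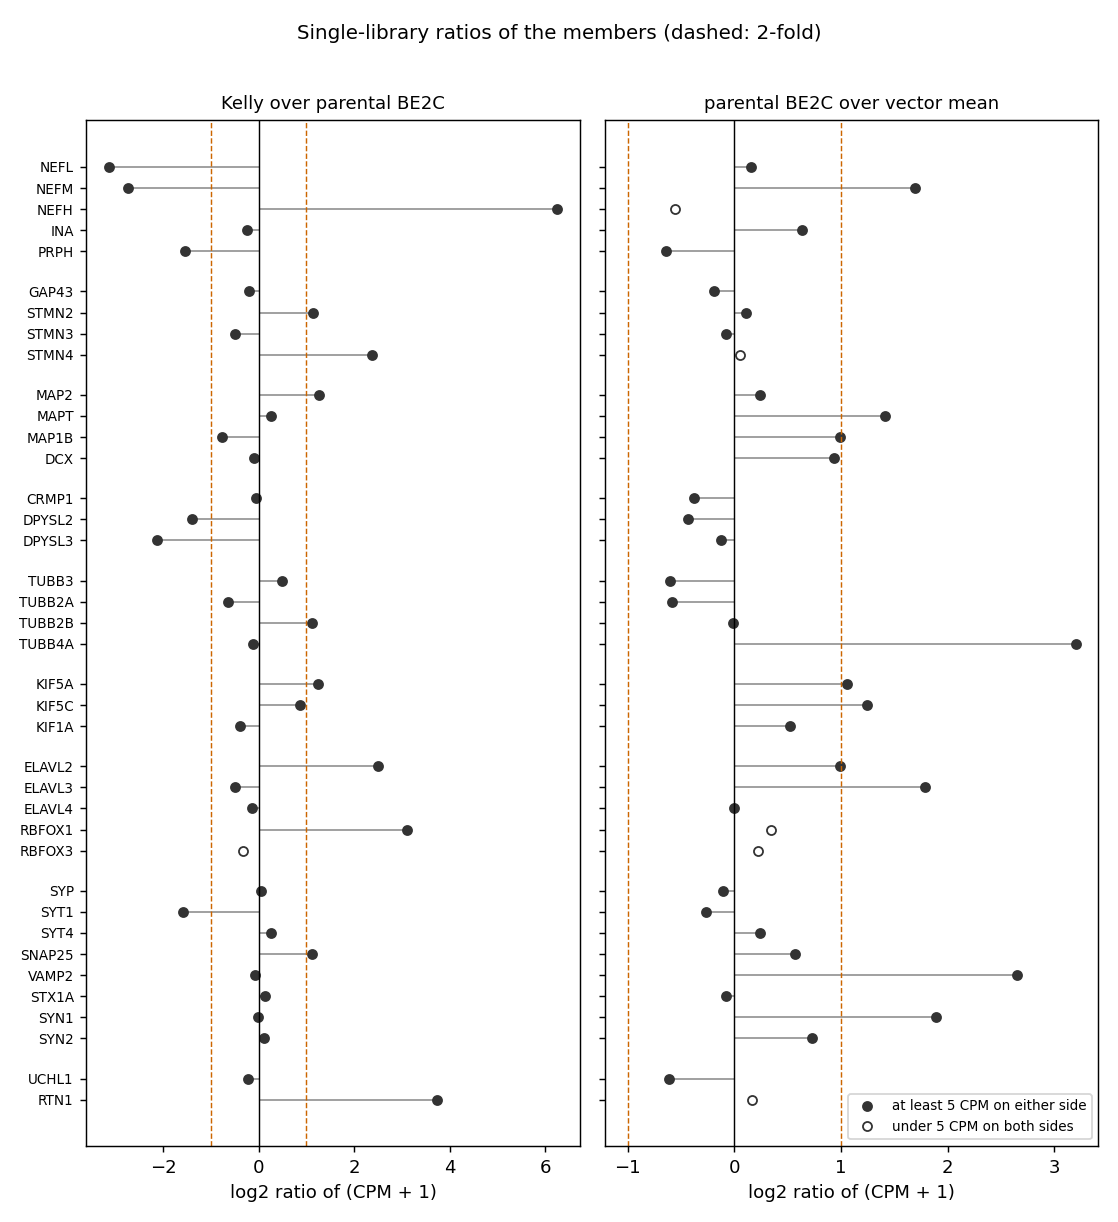
Log2 ratio of CPM with 1 added for each of the 38 genes, Kelly over parental BE2C on the left and parental BE2C over the vector mean on the right, each from a single library on at least 1 side. Dashed lines mark 2-fold and open dots mark genes under 5 CPM on both sides. NEFH reaches 6.25 and NEFL -3.14 on the left, and TUBB4A reaches 3.21 on the right, where no gene passes the lower 2-fold line.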

How the data were processed

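The authors deposited unnormalized read counts, 1 row for each gene symbol and 1 column for each library. TopHat2 2.0.6, HTSeq and hg19 are named in the submitters' processing notes. Per the labels' protocols, libraries were paired-end, from a strand-specific kit for total RNA. For annotation and strand setting, neither was found in the sources used here.

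CPM was scaled by TMM across the 6 libraries (edgeR 4.0.16, R 4.3.3) and given ± SD. LMO1 and vector libraries were compared by edgeR's quasi-likelihood test after filterByExpr (15480 of 25370 rows kept) with Benjamini-Hochberg adjustment over all genes tested. Single-library levels have exact Poisson 95% intervals, which cover counting error only, as reads carried no molecular identifiers. The floor for an unseen gene, 3 counts, came to 0.158 CPM at the lowest depth and 0.0496 CPM at the greatest. Transcript lengths, GC content and shared windows came from the longest GENCODE 29 transcript. Replicates varied beyond sampling noise, with a chi-square over its degrees of freedom of 2.91 (LMO1) and 2.75 (vector). Members, lists and motifs were chosen with earlier results of these data known. Named members were all called genes past 0.5 log2, the 6 highest and 6 lowest single-library ratios, and up to 3 called genes a direction from each other list, beside others by value. Alternatives were DESeq2 1.42.0, limma-voom (limma 3.58.1), other scalings and filters, all 6 libraries, a block and leaving out each library.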

Additional observations from a re-analysis of the deposited data

How the results depend on the processing

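Of the 26 called members, 16 of 21 higher and 2 of 5 lower kept their call in every alternative in which they were tested. Leaving out 1 library at a time gave 18 to 20 members higher and 3 to 5 lower, and medians of 0.23 to 0.26, while 1772 to 1914 genes were called higher over the table. Without vector replicate 2 the 3 lower members were CRMP1, PRPH and STMN3. DESeq2 called 18 members higher (47.4%) and 5 lower (13.2%). Over all 15480 genes tested it called 1539 (9.94%) and 1431 (9.24%). With total-count scaling the members' median was 0.30, with a 5 CPM filter 0.25 and with limma-voom 0.28. That filter left 32 members, of which 18 were higher (56.2%) and 5 lower (15.6%), against 18.8% and 17.3% of 11495 genes. In Kelly over parental BE2C the median was -0.0195 with total counts, 0.43 against all 5 BE2C libraries and 0.085 after centring by GC content, an alternative chosen after seeing the data. In parental BE2C over vector it was 0.22 with a 1 CPM filter and 0.15 after that centring. The causes were not tested. Without length scaling, the Kelly shares were 32.3% for NEFH, 9.11% for TUBB3, 41.6% for KIF5C and 55.6% for STMN2, against 30.5%, 12.04%, 37.6% and 61.1% with it. The fit with the replicate block called 21 members higher and 5 lower, as without it, against 16% and 15.3% of all genes tested. Deviations of same-numbered libraries correlated at -0.0209. With 2 libraries a group, the other matching gives the same value with opposite sign by construction. Whether the numbers pair the samples is therefore not settled. Depth limits NEFH, STMN4, TUBB4A, RTN1, RBFOX1 and RBFOX3, which had at most 114 counts in any modified library.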

Other observations

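Genes that hold neuronal transcripts down or set their splicing were read beside the members. With LMO1, 15.9% of all genes tested were called higher and 15.1% lower. REST, the repressor of neuronal genes in other cells, and its partners gave 1 gene higher and 2 lower of 10 tested with LMO1. Their median log2 fold change was -0.09. REST itself was not called (log2 -0.17, edgeR adjusted p = 0.404). RCOR1, a corepressor of REST, averaged 81.0 ± 0.838 CPM with LMO1, against 97.5 ± 0.507 CPM with vector (SD, n = 2 each) and fell by 0.26 (SE 0.0507, edgeR adjusted p = 4.88e-05). EHMT2, a histone methyltransferase, fell by 0.18, a call lost with DESeq2 (adjusted p = 0.0617), without LMO1 replicate 2 (edgeR adjusted p = 0.166) and without vector replicate 1 (log2 -0.12, edgeR adjusted p = 0.24). SIN3A, a corepressor scaffold, rose by 0.23, a call lost without LMO1 replicate 2 and without vector replicate 2 (edgeR adjusted p = 0.0837 and 0.0611). Of 20 other neuronal RNA-binding genes tested, 1 was called, PTBP3, a paralogue of the splicing repressor PTBP1, which fell by 0.19 (edgeR adjusted p = 0.00302). That call was lost without LMO1 replicate 2 and without vector replicate 1 (edgeR adjusted p = 0.0834 and 0.0956).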
